A study of Homo sapiens with 18 samples.

Results

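The metallothioneins examined here were MT2A and the type 1 genes MT1A, MT1E, MT1F, MT1G, MT1M and MT1X, chosen by gene symbol. All 7 had a row among the 35933 genes with values. The expression data came from 18 RNA-seq libraries of the MCF10 series of breast cell lines, in which METTL3, the methyltransferase that writes most N6-methyladenosine on mRNA, was targeted by CRISPR. MCF10A is a benign breast epithelial line that became immortal on its own, MCF10AT1 is MCF10A transformed with mutated HRAS, and MCF10CA1h was obtained from MCF10AT1 by serial passage as xenografts in mice. For each of the 3 lines there were 3 libraries, a, b and c, of a control negative CRISPR line and 3 of a Mettl3 knockdown line. Cells of both kinds had received Cas9, an sgRNA and the mCherry reporter, and were grown in the same medium with horse serum, insulin, hydrocortisone, cholera toxin and epidermal growth factor. By the methods each CRISPR line had been diluted to single cells for clonal selection, so the spread between a, b and c leaves out differences between clones, and a difference between 2 clones cannot be told apart from an effect of METTL3. Nothing states that a, b and c were separate cultures, and p-values measure the spread between these libraries only. Values are DESeq2-normalized counts, called normalized counts below, which summed to between 21347352 and 31681834 per library and are neither divided by length nor scaled to a fixed library total.

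Metallothioneins are small, cysteine-rich proteins that hold zinc and copper and bind cadmium. Their genes are among the classical targets of MTF1, the zinc-sensing transcription factor that acts through metal response elements, and they are also induced by glucocorticoids and by oxidative stress. MT2A and the MT1 genes arose by duplication and lie next to each other, so their transcripts share stretches of sequence.

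The members lie on chromosome 16 of hg38 within one cluster. In the order of the chromosome, MT2A was annotated at 56608584 to 56609497, MT1E at 56625475 to 56627112, MT1M at 56632659 to 56633981, MT1A at 56638666 to 56640087, MT1F at 56657731 to 56660698 and MT1X at 56682470 to 56684196 on the forward strand. MT1G, at 56666730 to 56668065, is the member on the reverse strand. The pseudogene MT1JP lies between MT1M and MT1A, at 56635818 to 56636943.

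Promoter sequence was available from RefSeq (GRCh38.p14) for MT2A and MT1X, and not used for MT1A, MT1E, MT1F, MT1G and MT1M. The 250 bases before the annotated start are shown for both because the metal response element, whose core was searched as TGCACNC or TGCGCNC on both strands, is the element through which zinc reaches these genes. Capitals mark each match, written as it reads on the forward strand. The MT2A window is chr16:56608334-56608583 and the MT1X window is chr16:56682220-56682469, both read on the forward strand.
MT2A: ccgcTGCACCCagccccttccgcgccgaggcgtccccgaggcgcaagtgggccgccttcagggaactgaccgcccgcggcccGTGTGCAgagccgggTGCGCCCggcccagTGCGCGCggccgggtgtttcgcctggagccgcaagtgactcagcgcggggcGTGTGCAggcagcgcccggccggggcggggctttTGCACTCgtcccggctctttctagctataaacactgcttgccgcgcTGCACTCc
MT1X: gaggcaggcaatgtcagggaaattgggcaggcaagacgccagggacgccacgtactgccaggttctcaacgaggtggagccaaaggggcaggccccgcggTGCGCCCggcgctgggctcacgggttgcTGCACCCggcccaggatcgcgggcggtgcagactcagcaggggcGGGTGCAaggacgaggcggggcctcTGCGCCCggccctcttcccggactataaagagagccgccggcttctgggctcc
The MT2A window held 7 matches, 5 forward and 2 reverse, and the MT1X window held 4, of which 3 were forward and 1 was reverse. Among 35116 RefSeq promoter windows of this length, 24.8% held at least 1 match, 0.37% at least 4 and 0.0313% at least 7. The MT2A window also held 1 match to the AP-1 letters TGACTCA on either strand, which 4.2% of the windows held and the MT1X window did not. A match describes the letters and not a bound site.

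Of the 7 members, 4 were expressed enough to be tested in every comparison, with a mean of at least 10 normalized counts over the libraries compared. These were MT2A, MT1E, MT1X and MT1F, and the other 3 were near the lower limit of the table. MT1A was listed at 3.43 in MCF10AT1 knockdown a and at 0 in the remaining 17 libraries. MT1M was above 0 in 5 libraries, with its highest value, 6.82, in MCF10AT1 knockdown b. MT1G was also above 0 in 5 libraries, with its highest value, 7.53, in MCF10AT1 knockdown a. None of these 3 genes exceeded 10 in any library, and no fold is given for them.

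Per kilobase of the canonical transcript, MT2A was the most abundant member in each of the 6 groups. In MCF10A control cells its mean level was 127496 normalized counts per kilobase, against 6870 for MT1X, 5134 for MT1E and 368 for MT1F, where the transcript taken for MT1E (746 bases) is longer than those of the other 3 (401 to 425 bases). MT1X and MT1E did not differ beyond their spread there, with libraries between 5276 and 7860 for MT1X and between 3950 and 7098 for MT1E. In MCF10CA1h control cells they separated, MT1E at a mean of 13433 and MT1X at a mean of 3931 per kilobase, and MT1F was again the lowest of the 4, at 97.1. The split of reads among near-identical copies is uncertain. Of the 31-base words of the GENCODE v44 transcript, 31 bases being the default word length of the aligner, 54.0% for MT1X, 31.5% for MT2A, 22.6% for MT1E and 13.9% for MT1F also occurred in another gene.

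METTL3 itself, on chromosome 14 at 21498133 to 21511342, was checked first. It was at 752, 686 and 459 normalized counts in the MCF10A control libraries a, b and c and at 939, 981 and 510 in those labelled knockdown. In MCF10AT1 it was at 968, 1016 and 805 against 816, 752 and 902, and in MCF10CA1h at 1022, 1102 and 1280 against 825, 745 and 843. The groups overlapped in MCF10A and MCF10AT1, and only in MCF10CA1h were all 3 libraries labelled knockdown below all controls. The log2 fold change was 0.33 ± 0.30 (SE, adjusted p = 0.618, exact permutation p = 0.5) in MCF10A, -0.17 ± 0.26 (adjusted p = 0.707, exact permutation p = 0.3) in MCF10AT1 and -0.49 ± 0.12 (adjusted p = 0.0234, exact permutation p = 0.1, the smallest that 3 libraries against 3 allow) in MCF10CA1h. The MCF10CA1h call was lost without control c (adjusted p = 0.0906) or labelled knockdown b (0.0854). The RNA level of METTL3 thus did not mark the libraries of MCF10A and MCF10AT1 as their labels name them. A frameshift in an exon need not lower the transcript, but whether these lines carry one was not tested. The study reported reduced METTL3 protein by Western blot in a pair of knockdown lines per cell line, only moderately in MCF10CA1h. Protein is not measured by these data. A single line of each pair was sequenced, and which is not stated in the sources used here. By real-time PCR the study also reported lower METTL3 mRNA in its knockdown lines, a smaller effect than on protein. No such decrease was seen here beyond the spread in MCF10A or MCF10AT1. Its N6-methyladenosine assay of total RNA was significantly lower in MCF10AT1 and MCF10CA1h, and not significantly in MCF10A. The groups are called labelled knockdown throughout.

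In the MCF10AT1 line the libraries labelled knockdown held far more metallothionein RNA than their controls, in MCF10CA1h moderately more, and in MCF10A less. Summed over the 7 members, the mean was 29484 ± 18938 (SD, n = 3) normalized counts in MCF10AT1 controls and 242011 ± 51765 in MCF10AT1 labelled knockdown, a ratio of 8.21. In MCF10CA1h it was 95814 ± 4349 and 141898 ± 23839, a ratio of 1.48, and in MCF10A it was 57888 ± 8448 and 29738 ± 4262, a ratio of 0.514. The groups did not overlap in any of the 3 lines. The members made up 0.106% of all normalized counts in MCF10AT1 controls and 0.816% in MCF10AT1 labelled knockdown. MT2A gave at least 66.4% of the sum in every library, so the sum mainly follows that gene, and no test is given for it.

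**Figure D1:**
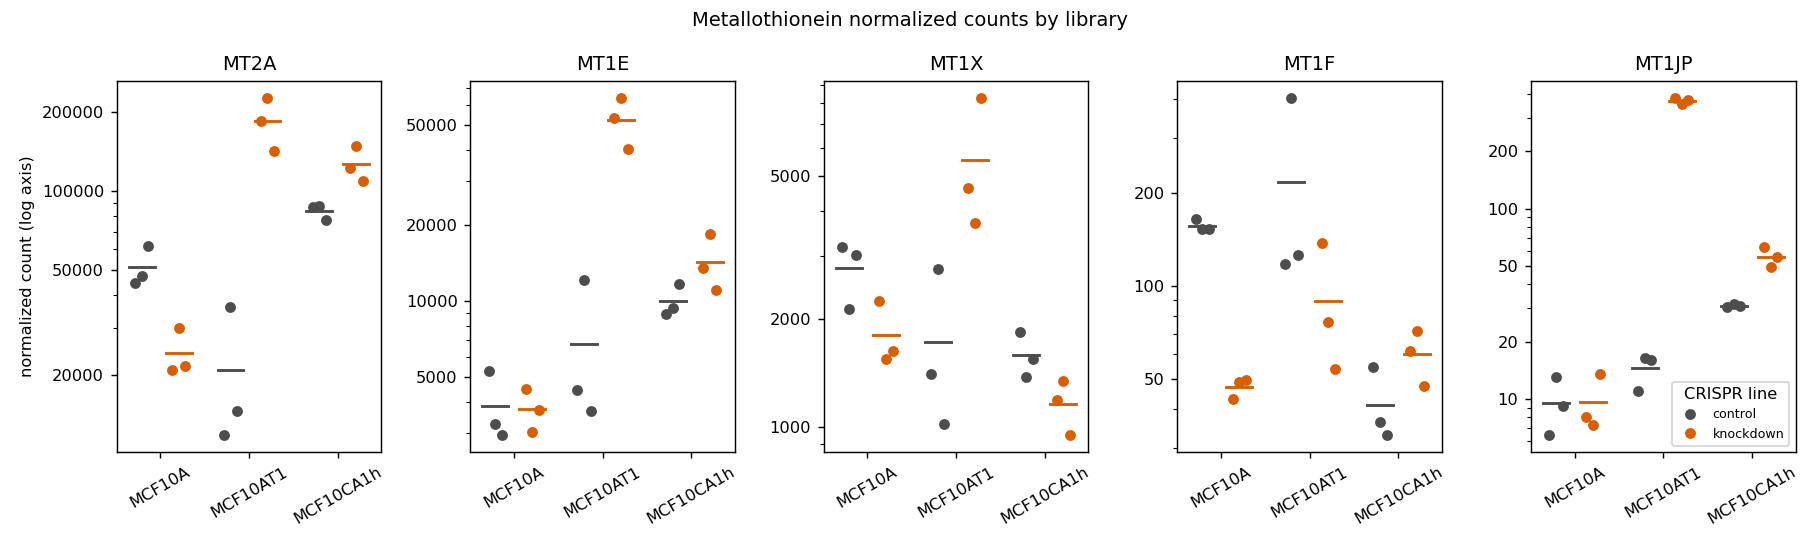
Normalized counts (log axis) of the 4 tested metallothioneins and of the pseudogene MT1JP in each of the 18 libraries. Points are libraries a, b and c from left to right, bars are group means, grey is control and orange is labelled knockdown. MT2A and MT1E of MCF10AT1 labelled knockdown lie above all MCF10AT1 controls, and MT1F of MCF10A labelled knockdown lies between 43.1 and 49.5, below its controls.

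In MCF10AT1, 3 of the 4 tested members rose and none fell past the threshold of adjusted p under 0.05, against 13.0% of all genes called, 7.07% higher and 5.96% lower. MT2A, the major human isoform, was at 11789, 36015 and 14568 normalized counts in the controls and at 184530, 225509 and 141519 in those labelled knockdown. The lowest of the latter was above the highest control. Its log2 fold change was 3.30 ± 0.47 (SE, n = 3 per group, adjusted p = 0.00256), a ratio of means of 8.84.

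MT1E behaved much like MT2A in MCF10AT1. Its normalized counts were 4432, 12156 and 3656 in controls and 53328, 64171 and 40096 in labelled knockdown, again without overlap. The log2 fold change was 3.15 ± 0.47 (adjusted p = 0.00331), a ratio of means of 7.78. MT1X rose less, from 1409, 2752 and 1021 to 4631, 3696 and 8261, with a log2 fold change of 1.72 ± 0.44 (adjusted p = 0.0381) and no overlap between groups. The call for MT1X is the least firm of the 3, since its adjusted p exceeded 0.05 in 5 of the 6 fits that left out 1 library, up to 0.139 without control a, and also with no filter (0.191) or no intensity trend (0.0737).

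MT1F did not follow the other 3 in MCF10AT1. Its normalized counts were 118, 405 and 126 in controls and 137, 76.4 and 53.7 in labelled knockdown, so the groups overlapped. The log2 fold change was -1.13 ± 0.59 (adjusted p = 0.257), with a 95% interval from -2.47 to 0.22. For 3 of the 4 tested members the groups did not overlap in MCF10AT1, while this held for 32.8% of all genes tested. The median log2 fold change of the 4 was 2.43, beside 0.02 over all genes.

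Control b of MCF10AT1 held the highest value of its group for MT2A, MT1E, MT1X and MT1F, and the largest sum of all 18 libraries. Without it the log2 fold changes in MCF10AT1 were 3.78 for MT2A, 3.68 for MT1E, 2.12 for MT1X and -0.55 for MT1F, and the same 3 genes passed the threshold.

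Genes that mark epithelial and mesenchymal cells differed in the same MCF10AT1 libraries, and their part in the metallothionein result was not tested. Of 7 breast basal markers, 4 were lower, among them KRT5 (log2 fold change -4.24, adjusted p = 0.00289) and KRT17 (-4.47, adjusted p = 3.83e-05), while the other 3 were not called, ITGB4 at a mean of 34409 and 102830 (1.50, adjusted p = 0.104), TP63 at 357 and 559 and LAMB3 at 14030 and 7011. The 7 summed to 98339 to 143523 in controls and to 60350 to 181256 in labelled knockdown, where ITGB4 alone was at 48088 to 167977. Of 5 luminal or simple epithelial markers, CDH1 (-6.79, adjusted p = 0.000474) and EPCAM (-5.16, adjusted p = 3.83e-05) were lower, with a summed level of 42265 to 76731 and of 23358 to 48063. Of 8 fibroblast or mesenchymal markers, 5 were tested and COL3A1 and THY1 were higher. Both reached a mean of 10 only through the libraries labelled knockdown, with controls at 0 to 2.25 and 0.87 to 1.91. The other 3 tested were not called. Their control and labelled knockdown means were 117 and 81.8 for COL1A1, 21.8 and 19.0 for PDGFRB and 390.5 and 683.5 for DCN. The sum went from between 427 and 659 to between 2703 and 4509, while COL1A2 and LUM were at 0 in every control. The immune markers summed to 780 to 1541 and to 1982 to 2978, with none of 3 tested called and PTPRC at 0 in all 6 libraries, and the endothelial markers to 225 to 863 and to 380 to 640, with the 1 tested not called. In such bulk RNA, more cells with a high level and more RNA per cell cannot be told apart.

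In MCF10CA1h, 1 of the 4 tested members rose and none fell past the threshold, against 12.8% of genes called, 7.91% higher and 4.85% lower. MT2A went from 87085, 87918 and 77484 normalized counts to 122537, 147772 and 108597, every library labelled knockdown lying above every control. The log2 fold change was 0.58 ± 0.12 (adjusted p = 0.0131), a ratio of means of 1.50. This call was lost without control c (adjusted p = 0.0514).

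The other members of MCF10CA1h did not pass the threshold. MT1E was at 8888, 9424 and 11752 in controls and at 13516, 18510 and 11095 in labelled knockdown, with a log2 fold change of 0.50 ± 0.17 (adjusted p = 0.0903). Its groups overlapped through 1 library of each. MT1X was at 1835, 1381 and 1548 against 1189, 1340 and 950, with a log2 fold change of -0.46 ± 0.15 (adjusted p = 0.0733), so it lay on the other side of 0 from MT2A and its groups did not overlap. MT1F was at 54.6, 36.3 and 32.9 against 61.4, 71.5 and 47.4, with a log2 fold change of 0.55 ± 0.30 (adjusted p = 0.263). The groups were apart for 2 of the 4 members, as for 32.7% of all genes. The median over the 4 members was 0.52 and over all genes -0.02. In these libraries 5 of the 7 basal markers were higher, their sum going from between 301065 and 314697 to between 411550 and 467648, against 7.91% of all genes called higher, and none of 4 tested luminal markers was called. The fibroblast or mesenchymal sum went from between 1270 and 1603 to between 2299 and 2361, with DCN higher and COL3A1 lower of 6 tested. Of 2 endothelial markers tested PECAM1 was lower, the sum going from between 96.2 and 137 to between 39.7 and 73.1, and of 2 immune markers tested CD68 was higher and CD14 lower, the sum going from between 839 and 955 to between 740 and 986. What part these have in the MT2A result was not tested.

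In MCF10A, 2 of the 4 tested members fell and none rose past the threshold, against 2.65% of genes called, 1.16% higher and 1.49% lower. MT1F showed the larger fall, from 164, 153 and 153 normalized counts to 43.1, 49.0 and 49.5. The 3 libraries of each group lay close together and far from the other group. The log2 fold change was -1.71 ± 0.24 (adjusted p = 0.0154), a ratio of means of 0.301. MT2A fell from 44523, 47332 and 61522 to 20913, 30016 and 21509, again with no overlap, and its log2 fold change was -1.09 ± 0.21 (adjusted p = 0.0392), a ratio of 0.472.

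The MT2A call in MCF10A rests on few libraries, since its adjusted p rose to between 0.104 and 0.171 in 4 of the 6 fits that left out 1 library, those without control b, control c, labelled knockdown a or labelled knockdown c. For MT1F it rose to at most 0.0707, in the 3 fits without control b, labelled knockdown a or labelled knockdown c. MT1X was at 3175, 2131 and 3019 in controls and at 2250, 1547 and 1625 in labelled knockdown, overlapping, with a log2 fold change of -0.62 ± 0.21 (adjusted p = 0.176). With the replicate letter as a block, which pairs control a with labelled knockdown a and so on, MT1X passed the threshold (adjusted p = 0.042) and 3 members were lower. MT1E, at 5295, 3248 and 2947 against 4497, 3023 and 3690, showed a log2 fold change of 0.00 ± 0.25 (adjusted p = 0.995), with a 95% interval from -0.57 to 0.56. Groups did not overlap for 2 of the 4 members, beside 23.9% of all genes, and the median of the 4 was -0.85 beside 0.00 over all genes. Of the 7 basal markers KRT5 was called higher (0.90, adjusted p = 0.0455), while KRT14 (-1.76, adjusted p = 0.0608), LAMB3 (-1.35, adjusted p = 0.0649) and ITGB4 (-0.72, adjusted p = 0.116) had lower values without overlap and were not called. The basal sum was 290088 to 423480 in controls and 328670 to 366403 in labelled knockdown. None of 4 luminal, 2 fibroblast or mesenchymal, 2 endothelial and 2 immune markers tested was called, with sums going from between 24304 and 28980 to between 20494 and 22792, from between 1083 and 1970 to between 1411 and 4249, from between 31.1 and 218 to between 337 and 535 and from between 751 and 2115 to between 290 and 546. The part of these markers' cells in the MT1F and MT2A results was not tested.

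**Figure D2:**
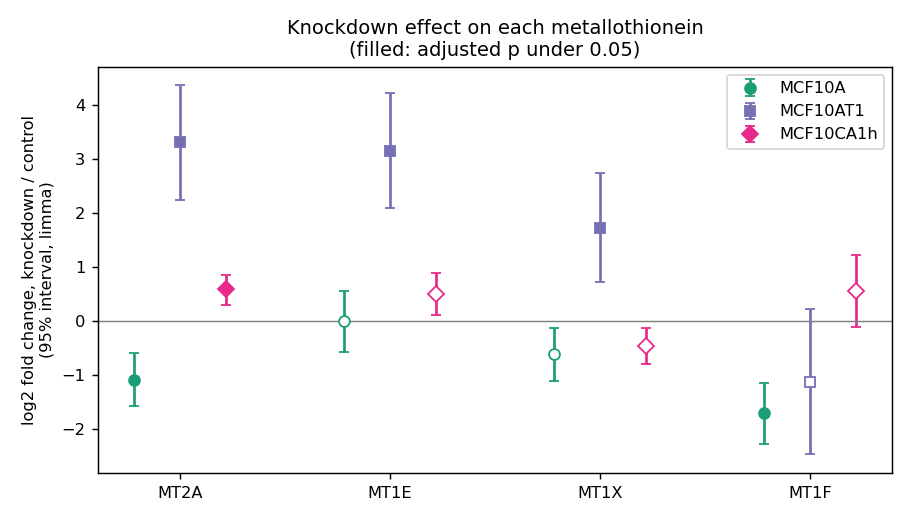
Log2 fold change of labelled knockdown over control for each tested metallothionein in each line, with the 95% interval from limma. Filled symbols have an adjusted p under 0.05. MT2A runs from -1.09 in MCF10A through 0.58 in MCF10CA1h to 3.30 in MCF10AT1, while MT1F is lowest in MCF10A at -1.71.

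Whether the effect differed between lines was tested as the difference of 2 log2 fold changes in a single fit of the 18 libraries. That fit gives each gene a spread shared by all lines, while the SEs of single-line fits were largest in MCF10AT1 for all 4 members. Its p-values can therefore be too small where MCF10AT1 enters and too large for MCF10CA1h against MCF10A. Between MCF10AT1 and MCF10A, 3 of the 4 members differed, all with the higher effect in MCF10AT1, against 21.6% of genes called, 11.2% higher and 10.5% lower. The difference was 4.39 ± 0.45 (adjusted p = 3.05e-06) for MT2A, 3.15 ± 0.51 (adjusted p = 0.000287) for MT1E and 2.34 ± 0.47 (adjusted p = 0.00169) for MT1X. For MT1F it was 0.58 ± 0.60 (adjusted p = 0.534). Between MCF10CA1h and MCF10AT1 MT2A, MT1E and MT1X differed, all with the lower effect in MCF10CA1h, against 18.2% of genes called, 9.67% higher and 8.51% lower. The difference was -2.72 ± 0.45 (adjusted p = 0.000407) for MT2A, -2.65 ± 0.51 (adjusted p = 0.00153) for MT1E and -2.18 ± 0.47 (adjusted p = 0.00342) for MT1X. For MT1F it was 1.67 ± 0.60 (adjusted p = 0.0643).

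Between MCF10CA1h and MCF10A, 2 members differed, both with the higher effect in MCF10CA1h, against 5.34% of genes called, 3.65% higher and 1.69% lower. These were MT2A, with a difference of 1.66 ± 0.45 (adjusted p = 0.0421), and MT1F, with a difference of 2.26 ± 0.60 (adjusted p = 0.0383). MT1E (0.50, adjusted p = 0.713) and MT1X (0.16, adjusted p = 0.92) did not pass the threshold there. In this fit with a shared spread, the calls between these 2 lines are the least firm. In fits that left out 1 library, the adjusted p of MT2A passed 0.05 in 10 of 18 and reached 0.12, and that of MT1F passed it in 11 of 18 and reached 0.105.

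The members kept different proportions to each other across groups. The ratio of MT2A to MT1E within a library, on the log2 scale of normalized counts, was 1.66 ± 0.30 (SD) in MCF10AT1 controls and 1.81 ± 0.02 in labelled knockdown, a change of 0.15 (exact permutation p = 0.4). The ratio of MT2A to MT1F in the same libraries was 6.65 ± 0.19 and 11.08 ± 0.61, a change of 4.43, and the groups did not overlap (exact permutation p = 0.1, the smallest possible). In MCF10CA1h the MT2A to MT1F ratio was 10.99 ± 0.33 and 11.02 ± 0.10, a change of 0.03 (exact permutation p = 1.0). The MT2A to MT1X ratio lay higher in every library labelled knockdown than in every control of MCF10AT1 and of MCF10CA1h, with changes of 1.58 and 1.03 (exact permutation p = 0.1 each), and changed by -0.47 in MCF10A, where the groups overlapped (exact permutation p = 0.2). In all, 18 such ratios were compared, 6 pairs of members in 3 lines, and none can pass a correction for that number with 3 libraries against 3.

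**Figure D3:**
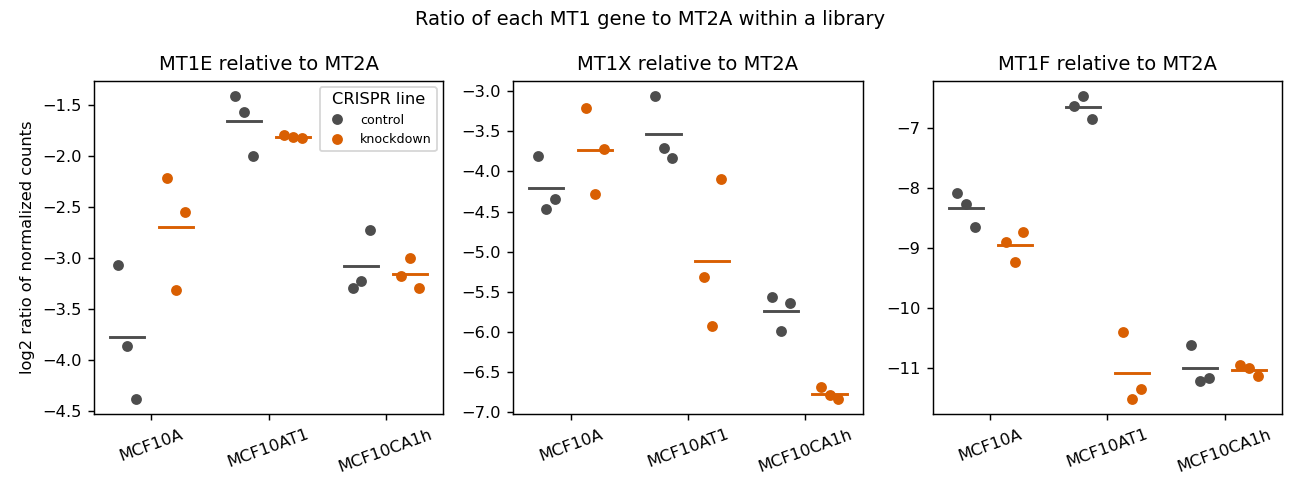
Log2 ratio of MT1E, MT1X and MT1F to MT2A within each library, from normalized counts with 1 added, so a lower point means less of the gene per MT2A. Points are libraries, bars are means, grey is control and orange is labelled knockdown. The MT1E points of the 2 groups overlap in MCF10AT1, whereas the MT1F points of labelled knockdown there lie far below those of the controls.

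Over the 18 libraries the Pearson correlation of log2 values was 0.81 between MT2A and MT1E, 0.49 between MT1E and MT1X, 0.36 between MT2A and MT1X, 0.29 between MT1F and MT1X, -0.08 between MT1E and MT1F and -0.20 between MT2A and MT1F. Once group means were subtracted, the correlation of MT2A with MT1F was 0.78 and that of MT1E with MT1F was 0.68. For the other pairs the value after subtraction lay between 0.33 and 0.62. MCF10AT1 control b, far above the other controls of its group, enters all values after subtraction. It held 36015 normalized counts of MT2A, against 11789 and 14568, and 405 of MT1F, against 118 and 126. Correlations without that library were not computed. The libraries share lines and clones, so these correlations are descriptions only.

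An average of the 4 members was taken over standardised log2 profiles, so each member had the same weight. Among 12456 genes with a mean of at least 50, those most like it over the 18 libraries were FAM50A and FURIN (both r = 0.93), PHF1 (0.92), POMGNT1 and GLRX (both 0.91). These genes were chosen for that likeness in the same libraries, so their values are a description without a test. None of them was among the 5 genes most like any single member. GLRX, which encodes the thiol-disulfide oxidoreductase glutaredoxin, was between 583 and 887 normalized counts in MCF10A controls and between 230 and 325 in labelled knockdown. In MCF10AT1 it was between 326 and 739 and between 5732 and 8017, and in MCF10CA1h between 569 and 657 and between 914 and 1129. Its log2 fold changes were -1.34, 3.71 and 0.73 in MCF10A, MCF10AT1 and MCF10CA1h. Those of the other 4 were smaller, from -0.55 to -0.35 in MCF10A, from 0.99 to 1.40 in MCF10AT1 and from -0.05 to 0.43 in MCF10CA1h.

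Among control cells the lines differed in some members. MT2A was lower in MCF10AT1 than in MCF10A (log2 fold change -1.46 ± 0.37, adjusted p = 0.0195), the 1 member of 4 called between these lines against 28.1% of genes, 13.3% higher and 14.7% lower. Between MCF10CA1h and MCF10A, MT1E was higher (1.43 ± 0.42, adjusted p = 0.0239) and MT1F lower (-1.93 ± 0.46, adjusted p = 0.00994), 2 members of 4 against 37.8% of genes, 19.0% higher and 18.8% lower. Between MCF10CA1h and MCF10AT1, MT2A was higher (2.19 ± 0.37, adjusted p = 0.00339) and MT1F lower (-2.15 ± 0.46, adjusted p = 0.0105), 2 of 4 against 21.8% of genes, 11.0% higher and 10.8% lower. The 3 comparisons share their control libraries.

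Several of these differences moved with 1 library. Without MCF10AT1 control b, MT1X was also called lower in MCF10AT1 than in MCF10A (-1.19, adjusted p = 0.0126) and MT1E higher in MCF10CA1h than in MCF10AT1 (1.30, adjusted p = 0.00919). All 4 members were then called between MCF10CA1h and MCF10A, whose own libraries were unchanged, MT2A with 0.73 (adjusted p = 0.00983) and MT1X with -0.79 (adjusted p = 0.015). The MT2A call between MCF10AT1 and MCF10A was lost without MCF10A control b (adjusted p = 0.0603), MCF10A control c (0.08) or MCF10AT1 control a (0.0682). MT1E between MCF10CA1h and MCF10A was lost without either of MCF10A controls b and c or without any 1 of the 3 MCF10CA1h controls, with an adjusted p of at most 0.0869.

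Ordered by group mean, MT2A ran from MCF10AT1 control (20791 normalized counts) and MCF10A labelled knockdown (24146) through MCF10A control (51126), MCF10CA1h control (84162) and MCF10CA1h labelled knockdown (126302) to MCF10AT1 labelled knockdown (183853). The first 2 of these overlapped, and so did the last 2. MT1F gave another order, with the lowest means in MCF10CA1h control (41.3) and MCF10A labelled knockdown (47.2), which overlapped, and the highest in MCF10A control (157) and MCF10AT1 control (216), which also overlapped.

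Of 12 further family genes listed, 7 had values and MT1JP, a pseudogene in the cluster, was the 1 expressed enough to be tested. It was at 10.94, 16.41 and 16.03 normalized counts in MCF10AT1 controls and at 382, 357 and 370 in labelled knockdown, a log2 fold change of 4.60 ± 0.39 (adjusted p = 0.00023) and a ratio of means of 25.6. In MCF10CA1h it was at 30.3, 31.6 and 30.7 and at 62.5, 49.6 and 55.6, apart but not past the threshold (0.83 ± 0.26, adjusted p = 0.0653). In MCF10A it stayed between 6.45 and 13.5 in all 6 libraries, under the filter. Of its 31-base words 32.7% also occur in members, and all of them occur in a second annotation record of the same pseudogene. Whether reads of members were assigned to it was not tested. The remaining 6, all annotated as pseudogenes, stayed at or under 9.09 in every library.

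Of 17 genes listed that flank the cluster, 16 had values and 15 were tested. None passed the threshold in MCF10A or MCF10AT1 (limma, 5 and 2 of them at an unadjusted p under 0.05, which 18.4% and 27.6% of all genes reached). In MCF10CA1h 2 of the 15 were called, against 12.8% of all genes. HERPUD1, an endoplasmic reticulum stress gene, was higher (0.53 ± 0.12, adjusted p = 0.0195) and GNAO1, which encodes a G protein subunit, was lower (-1.64 ± 0.24, adjusted p = 0.00206). NUP93, the nearest tested gene after MT1X, had log2 fold changes of -0.31, 0.23 and 0.05 in MCF10A, MCF10AT1 and MCF10CA1h, with adjusted p of 0.424, 0.766 and 0.787.

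**Figure D4:**
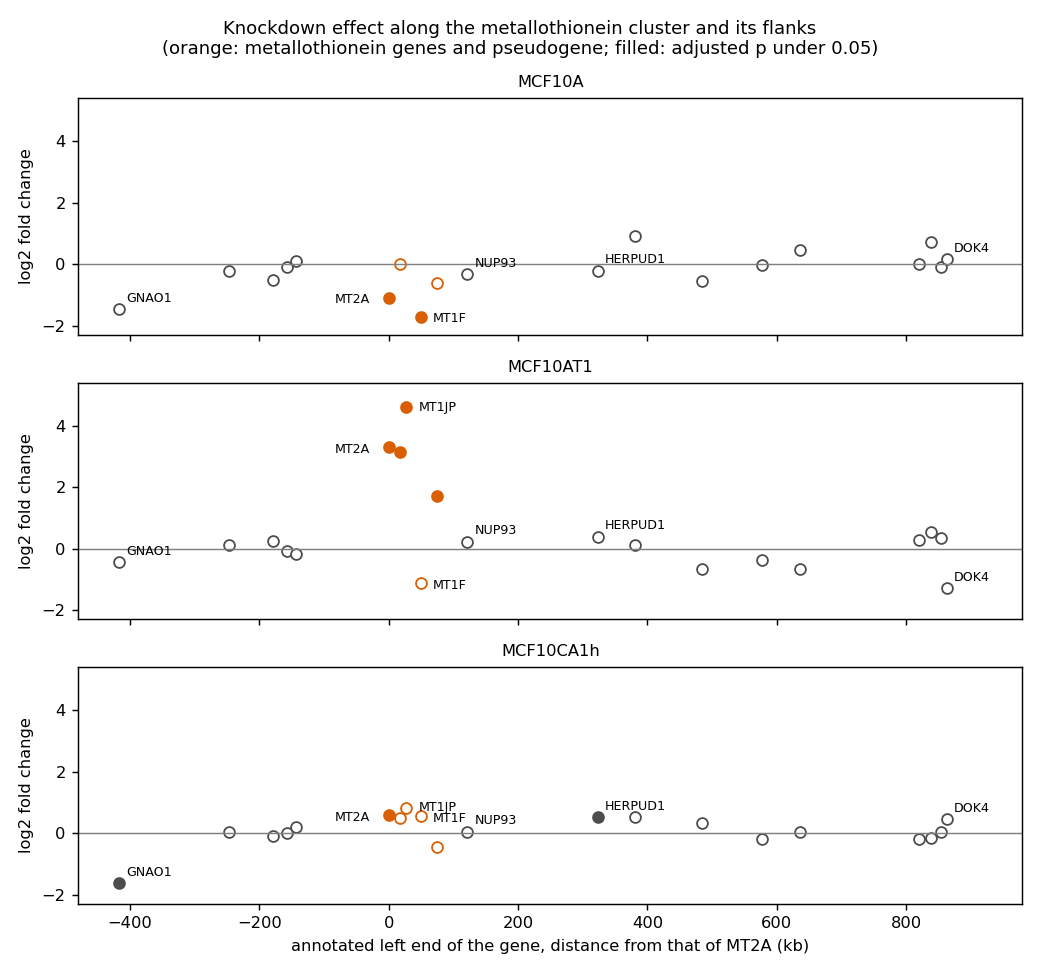
Log2 fold change of labelled knockdown over control by position along chromosome 16, as the distance in kilobases from MT2A, for metallothionein genes and MT1JP (orange) and neighbouring genes (grey) in each line. Filled points have an adjusted p under 0.05. In MCF10AT1 the 4 filled points are MT2A, MT1E, MT1JP and MT1X, and no neighbour is filled.

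MTF1 and the zinc transporters formed a list of 25 genes, of which 24 had values and 18 were tested. MTF1 had log2 fold changes of 0.07, -0.08 and -0.27 in MCF10A, MCF10AT1 and MCF10CA1h (adjusted p = 0.899, 0.926 and 0.346). SLC30A1 is the zinc exporter that MTF1 is known to induce beside the metallothioneins. It did not pass the threshold in any line, with -0.01, 0.56 and -0.39 (adjusted p = 0.992, 0.483 and 0.0575). The part of zinc or MTF1 in the metallothionein result was not tested. None of the 18 was called in MCF10A (limma, 4 at an unadjusted p under 0.05, against 18.4% of all genes). In MCF10AT1 and in MCF10CA1h 2 of the 18 were called, a share no higher than the 13.0% and 12.8% of all genes called there. In MCF10AT1 the zinc transporters SLC39A7 and SLC39A13 rose, by 1.65 ± 0.29 (adjusted p = 0.00806) and 1.05 ± 0.27 (adjusted p = 0.0366), and none fell. In MCF10CA1h SLC39A8 rose by 1.06 ± 0.22 (adjusted p = 0.0117) and SLC39A13 by 0.89 ± 0.13 (adjusted p = 0.00164), and none fell. Among control cells, 12 of the 18 were called between MCF10AT1 and MCF10A, 3 higher and 9 lower, against 28.1% of all genes, and 11 between MCF10CA1h and MCF10A, 3 higher and 8 lower, against 37.8% of all genes, with list medians of -0.82 and -0.60 beside -0.01 and -0.06 over all genes. For the labelled knockdown the list medians were -0.01, -0.06 and -0.03 in the 3 lines, beside 0.00, 0.02 and -0.02 over all genes.

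Of 8 copper handling genes, none was called in MCF10A (limma, 1 at an unadjusted p under 0.05, against 18.4% of all genes). Called were 1 in MCF10AT1, where 13.0% of all genes were, and 2 in MCF10CA1h, where 12.8% were. In MCF10AT1 SLC31A2, a copper transporter, was lower (-2.42 ± 0.53, adjusted p = 0.0197). In MCF10CA1h ATOX1, a copper chaperone, was higher (0.60 ± 0.10, adjusted p = 0.00478) and the importer SLC31A1 lower (-0.39 ± 0.11, adjusted p = 0.0437).

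Of 10 heavy metal and oxidative stress genes, 4 rose in MCF10AT1 and 2 rose in MCF10CA1h, with none called lower. In MCF10A none was called. There 5 were at an unadjusted p under 0.05 (limma), 3 of them higher, against 18.4% of all genes. Of all genes, 7.07% were called higher in MCF10AT1 and 7.91% in MCF10CA1h. In MCF10AT1 the called genes included the NRF2 targets NQO1 (3.12 ± 0.32, adjusted p = 0.000524) and OSGIN1 (2.11 ± 0.38, adjusted p = 0.00862) and the heme oxygenase HMOX1 (1.66 ± 0.38, adjusted p = 0.0235). The list genes not called there overlapped between groups. Mean normalized counts of control and labelled knockdown were 861 and 537 for GCLC, 454 and 411 for GCLM and 2003 and 1469 for NFE2L2. TXNRD1 was at 2234, 1238 and 5899 against 1335, 2163 and 5428. SLC7A11 (187, 482 and 1096 against 177, 1086 and 2072) and SRXN1 (2899, 3303 and 3514 against 2427, 3038 and 5923) had higher means. In MCF10CA1h OSGIN1 (1.26 ± 0.20, adjusted p = 0.0031) and SRXN1 (0.49 ± 0.08, adjusted p = 0.00347) rose. The list medians were 0.05, 0.40 and 0.12 in MCF10A, MCF10AT1 and MCF10CA1h.

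Of 12 genes of the glucocorticoid receptor and its classical targets, 1 was called in MCF10A, 1 in MCF10AT1 and 4 in MCF10CA1h, against 2.65%, 13.0% and 12.8% of all genes. TFCP2L1 was the 1 called in MCF10A, higher by 1.08 ± 0.15 (adjusted p = 0.0143), and the 1 called in MCF10AT1, lower (-2.76 ± 0.49, adjusted p = 0.0074). FKBP5, a well known glucocorticoid target, did not pass the threshold in any line (0.05, 0.90 and -0.37, adjusted p = 0.90, 0.133 and 0.0688). In MCF10AT1 it was at 7161, 6372 and 9806 in controls and at 13104, 10337 and 21432 in labelled knockdown, without overlap. The part of glucocorticoids in the metallothionein result was not tested. In MCF10CA1h 1 gene of the list rose, ANGPTL4 (1.27 ± 0.13, adjusted p = 0.000249), and 3 fell, TFCP2L1 (-0.91 ± 0.11, adjusted p = 0.000513), KLF9 (-0.90 ± 0.18, adjusted p = 0.00973) and CEBPD (-0.62 ± 0.17, adjusted p = 0.0361). Of 10 heat shock genes none was called in any line (limma, 2, 5 and 2 at an unadjusted p under 0.05 in MCF10A, MCF10AT1 and MCF10CA1h, where 18.4%, 27.6% and 28.0% of all genes were).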

How the data were processed

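RNA was sequenced from 18 libraries in paired-end reads of 100 bases. The sample labels name polyA RNA while the protocol describes ribosomal RNA depletion of total RNA, and which applies was not settled. The authors pseudo-aligned reads with kallisto 0.46.1, used tximport for gene totals and DESeq2 1.26.0 for normalization (in R 4.1.1, by the submitters' processing notes, which name hg38). The annotation release is not given in the sources used here. The deposited normalized counts are a signal, neither whole reads nor per length. Between 14.9% and 37.1% of low values lay at whole multiples of the commonest low value (within 0.02), so reads were not recovered, depth per gene is unknown and no counting interval is given. Median-of-ratios factors were between 1.013 and 1.018. Left out were 24639 blank rows and 7 rows with a lone number. Where genes shared a symbol the highest was used, which set aside 294 genes.

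Here limma 3.58.1 in R 4.3.3 (lmFit, and eBayes with an intensity trend) was run on log2(normalized count + 1), keeping genes whose mean reached 10, with Benjamini-Hochberg adjustment over all genes and a two-sided threshold of 0.05. Fold changes are on that scale, which understates the change of low genes. Each line was fitted alone (3 against 3), differences between lines as contrasts in 1 fit of 18 libraries, and control lines in a fit of 9. Exact permutation tests were two-sided. The code was tested on simulated data. Python 3.11.15, pandas 2.3.3, NumPy 2.4.6, SciPy 1.17.1 and matplotlib 3.10.9 were used for the rest. Gene positions and transcript lengths came from GENCODE v44.

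Replicate letters come from the sample titles. Deviations from group means correlated between same-letter libraries by 0.12 to 0.22 in MCF10A and by 0.11 to 0.48 in MCF10AT1, all over 0.1, and by -0.01 to 0.05 in MCF10CA1h, so letters were taken to pair libraries in the first 2 lines. The main fits and the permutation tests did not use this pairing, so their p-values are unpaired. Only the replicate block used it. The members and gene lists were chosen with earlier results of these data known. Named were all members, METTL3, other family genes, list genes past the threshold in some line with a mean of at least 50 (up to 4 per line), and the 5 genes most like the members. The values of 1 list gene are not reported here. MTF1, SLC30A1, FKBP5, NUP93, the stress genes not called in MCF10AT1 and the single markers were named after their values were seen. Alternatives were pseudocounts of 0.5 and 5, no filter or a mean of 50, no trend, other scalings, a joint fit, the replicate block and each library left out.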

Additional observations from a re-analysis of the deposited data

Results flagged for a closer look

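For 8 results the effect of the labelled knockdown differed between 2 lines (limma, interaction contrast over 18 libraries, adjusted p under 0.05). The test shares its spread across lines. MT2A differed between all 3 pairs of lines, by 4.39 on the log2 scale for MCF10AT1 minus MCF10A, by 1.66 for MCF10CA1h minus MCF10A and by -2.72 for MCF10CA1h minus MCF10AT1. MT1E differed by 3.15 for MCF10AT1 minus MCF10A and by -2.65 for MCF10CA1h minus MCF10AT1. MT1X differed by 2.34 for MCF10AT1 minus MCF10A and by -2.18 for MCF10CA1h minus MCF10AT1. MT1F differed by 2.26 for MCF10CA1h minus MCF10A. Each line stands for 1 clone of each kind, so differences between lines and differences between clones cannot be told apart. No group held enough libraries to test for single libraries that stand apart.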

How the results depend on the processing

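The number of members past the threshold depended on the settings more than their direction did. Of 696 values of single members under alternative settings, 616 kept their direction and their side of the threshold, 58 lost the call, 14 gained one and 8 changed sign. In MCF10A 1 member in place of 2 was called with no filter, no intensity trend, equal sums per library or a joint fit of 18 libraries, and 0 to 2 with 1 library left out. In MCF10AT1 0 members in place of 3 were called with no filter, where MT2A had an adjusted p of 0.0592 and MT1E of 0.0569, and 2 to 3 with 1 library left out. MT1X there also lost its call with no trend (adjusted p = 0.0737). In MCF10CA1h 0 in place of 1 were called with no filter, no trend or the joint fit, 2 with equal sums, and 0 to 2 with 1 library left out. The difference between MCF10CA1h and MCF10A gave 0 with no filter, 1 with no trend and 0 to 2 with 1 library left out, in place of 2. Control cells gave 0 with no filter, 2 with equal sums and 0 to 2 with 1 library left out in place of 1 for MCF10AT1 against MCF10A, and 1 with no filter, 3 with equal sums (MT1X, adjusted p = 0.0366) and 1 to 4 with 1 library left out in place of 2 for MCF10CA1h against MCF10A. The difference between MCF10CA1h and MCF10AT1 gave 4 in place of 3 with equal sums (MT1F, adjusted p = 0.0327) and in 3 of 18 fits with 1 library left out. METTL3 in MCF10CA1h ranged from -0.56 to -0.40 with 1 library left out. Without the filter 117, 1399 and 606 genes were called in MCF10A, MCF10AT1 and MCF10CA1h out of 35933, in place of 409, 2091 and 1929, and with the joint fit 610, 5146 and 248. The cause was not tested. The values that changed sign were all near 0 and not called, namely MT1E in MCF10A (0.08 with equal sums, -0.17 to 0.25 with 1 library left out), MT1F between MCF10AT1 and MCF10A controls (-0.36 to 0.53) and MT1X between MCF10CA1h and MCF10AT1 controls (0.11 with equal sums, -0.32 to 0.39). Equal sums moved the median of all genes to -0.15 in MCF10AT1 and to -0.26 for MCF10AT1 minus MCF10A, and the share of called genes that were higher from 62.0% to 50.2% in MCF10CA1h and from 51.6% to 39.6% for MCF10AT1 minus MCF10A. With the replicate block 1172, 3939 and 1876 genes were called in the 3 lines in that order, and 3, 3 and 1 members. MT1X in MCF10A was the 1 member call the block changed. Added after the data were seen were the block and the left-out libraries for METTL3, and all settings for MT1JP, whose rise in MCF10AT1 stayed between 4.28 and 4.70 with an adjusted p of at most 0.00475.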
